A study of Mus musculus with 49 samples.

Results

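Wnt signalling genes were examined on 49 one-colour microarrays of mouse fibroblasts, reprogramming intermediates and pluripotent lines. They were taken by symbol: every probe whose current mouse gene symbol names a Wnt, a frizzled receptor, an Sfrp, Dkk1 to Dkk4, an R-spondin, a dishevelled, Lrp5, Lrp6, Axin1, Axin2, Apc, Ctnnb1, a Tcf7 gene, Lef1, Wif1 or Porcn. The brightest probe stood for each gene, which gave 49 genes of 13852 named on the array, from 53 probes. In the annotation, 57 genes matched the rule, and 8 of them, Fzd10os, Fzd4, Lef1, Lrp6, Rspo1, Wnt10b, Wnt3a and Wnt8a, had no named probe here and were not analysed.

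The embryonic fibroblasts (MEF) were female, of the OGXICR strain, from skin of limbs and tails at the age D13.5, and factors were delivered with doxycycline-inducible lentivirus. The pluripotent group held 3 lines of induced pluripotent stem cells (iPSC), G6Gm, G3 and Dlx3RNAi, labelled with the same strain, sex, age and tissue, the last also with Dlx3 RNAi, and the embryonic stem cell (ESC) lines R1, strain 129, and B6, strain C57BL\6. They had 2 arrays each, except B6 with 3, and the uninfected MEF had 2. SKM (SOX2, KLF4 and MYC) was combined with OCT4, GATA6, SOX7, PAX1, CEBPa, HNF4a, GRB2 or MIXL1, with 2 arrays for each factor, or with GATA4, with 3 arrays. Their control was EV+SKM, with an empty vector (EV) in place of the added factor, and the control of EV+SKM was MEF1 with EV alone, on 2 arrays each. OKM (OCT4, KLF4 and MYC) was combined with SOX1, SOX3, GMNN or SOX2 on 2 arrays each and with EV on 3, and MEF2 with EV alone had 2. Each line is a single line, so its values speak for that line. The sources used here do not state when cells were harvested after infection or how many cultures stand behind the replicates. The p-values therefore cover only the spread between these arrays, which may be technical.

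All pluripotent lines were grown on mitomycin C-treated MEF feeder cells, in a medium with 1 µM PD0325901 and 3 µM CHIR99021, which the labels say LIF could replace. CHIR99021 inhibits GSK3, the kinase that marks beta-catenin for destruction, and so acts on the pathway described here, while the fibroblast media list no such inhibitor. Which of the 2 media each array's cells had is not given, and its part in any difference between lines and MEF cannot be told apart from the cell type.

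In the canonical Wnt pathway, a Wnt ligand made ready for secretion by the acyltransferase Porcn binds a frizzled receptor and the co-receptors Lrp5 or Lrp6. Dishevelled proteins then disable the complex of Axin, Apc and GSK3, so that beta-catenin (Ctnnb1) accumulates and joins TCF/LEF factors on their target genes. Sfrp proteins and Wif1 bind Wnts outside the cell, Dkk1, Dkk2 and Dkk4 act on Lrp5 and Lrp6, and R-spondins raise the amount of receptor at the surface. In mouse embryonic stem cells, Tcf7l1 is known as a repressor whose relief by beta-catenin supports self-renewal.

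The arrays fall into 5 sets that were normalised apart, as their missing probes and sorted values show, and only arrays of the same set were tested against each other. Values are intensities, tests were made in limma on log2(intensity + 32), and a gene passed at a Benjamini-Hochberg adjusted p under 0.05 over all genes of the comparison. Intensities are set against each other for 1 probe only, never between probes. Of the 49 genes, 37 had a value in the set of uninfected MEF, iPSC lines and R1, 32 in the set of MEF1 and SKM, 40 in the set of MEF2 and OKM+EV, 38 in the set of OKM with SOX or GMNN, and 47 in B6. Dkk1, Dkk4, Fzd10, Rspo4, Wif1 and Wnt4 had values in B6 alone. Replicate arrays correlated at 0.976 or more, except OKM+EV, down to 0.843, and OKM+SOX2, at 0.905.

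The 250 bases before the start site were available from RefSeq (GRCm38.p6) for 32 of the 49 genes. They are shown for 6 genes whose values the results turn on. The windows are Dkk2 at chr3:132085042-132085291, Sfrp2 at chr3:83766071-83766320, Axin2 at chr11:108920099-108920348 and Fzd7 at chr1:59481897-59482146, all on the plus strand, and Wnt2 at chr6:18030446-18030695 on the minus strand. For Tcf7l2 the second of its listed start sites is shown, at chr19:55895071-55895320 on the plus strand, because it holds a motif. The window of the other, at chr19:55741560-55741809, holds none. The windows of Axin2, Sfrp2 and Wnt2, and the window shown for Tcf7l2, lie inside the annotated span of the gene. Its outer end is at 108917828 for Axin2, 83765750 for Sfrp2, 18032772 for Wnt2 and 55741797 for Tcf7l2. The bases before the outer ends of Axin2, Sfrp2 and Wnt2 were not searched. For Tcf7l2 the window without a motif lies at the outer end. Capitals mark a TCF/LEF motif, searched on either strand as CTTTGAT or CTTTGAA, and also as CTTTGTT or CTTTGTA.
Dkk2: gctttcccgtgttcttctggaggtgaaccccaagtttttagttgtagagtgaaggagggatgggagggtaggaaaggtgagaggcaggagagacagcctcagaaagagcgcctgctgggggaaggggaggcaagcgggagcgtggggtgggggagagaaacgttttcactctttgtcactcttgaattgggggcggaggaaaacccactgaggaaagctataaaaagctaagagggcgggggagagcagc
Sfrp2: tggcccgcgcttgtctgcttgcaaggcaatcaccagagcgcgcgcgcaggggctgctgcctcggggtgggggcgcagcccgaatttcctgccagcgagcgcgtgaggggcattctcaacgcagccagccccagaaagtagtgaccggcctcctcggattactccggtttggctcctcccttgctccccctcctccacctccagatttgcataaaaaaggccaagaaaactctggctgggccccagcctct
Wnt2: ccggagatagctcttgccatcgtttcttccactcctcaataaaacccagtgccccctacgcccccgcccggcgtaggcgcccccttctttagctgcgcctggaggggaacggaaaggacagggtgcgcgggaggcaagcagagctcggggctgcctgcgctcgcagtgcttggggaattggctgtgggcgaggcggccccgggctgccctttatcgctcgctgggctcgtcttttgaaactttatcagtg
Axin2: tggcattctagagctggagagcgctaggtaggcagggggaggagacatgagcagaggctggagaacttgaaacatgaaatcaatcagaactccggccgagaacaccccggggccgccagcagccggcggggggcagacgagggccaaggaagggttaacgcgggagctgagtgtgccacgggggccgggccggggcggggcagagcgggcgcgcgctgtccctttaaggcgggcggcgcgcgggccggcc
Fzd7: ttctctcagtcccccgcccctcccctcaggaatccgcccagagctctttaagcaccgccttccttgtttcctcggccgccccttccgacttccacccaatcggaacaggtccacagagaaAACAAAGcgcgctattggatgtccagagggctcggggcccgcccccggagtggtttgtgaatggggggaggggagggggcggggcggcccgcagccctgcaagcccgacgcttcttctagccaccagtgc
Tcf7l2: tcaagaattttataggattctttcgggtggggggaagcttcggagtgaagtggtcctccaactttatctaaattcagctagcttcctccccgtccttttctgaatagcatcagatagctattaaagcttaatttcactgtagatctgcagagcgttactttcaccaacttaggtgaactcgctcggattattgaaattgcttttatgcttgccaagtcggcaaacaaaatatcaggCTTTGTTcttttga

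Only the Fzd7 window, on the minus strand, and the Tcf7l2 window among these 6 hold such a motif, both as CTTTGTT, 130 and 14 bases before the start. Over the full 300-base entries, from 250 before to 50 after the start, 6 of the 38 entries of the 32 genes held a motif (15.8%). Of all 32851 entries in the table, 5544 did (16.9%). The genes with a motif were Fzd7, Wnt5b, Wnt11, Wnt3, Dkk1 and Tcf7l2. The upstream windows of the Wnt genes had a median of 70.2% G and C and 22.5 CpG, against 52.4% and 6.0 over all windows in the table.

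In the pluripotent lines, Dkk2, Sfrp2 and Rspo2 were far below the uninfected MEF, and Tcf7, Axin2 and Porcn were above it. Of the 37 genes tested, 5 rose and 15 fell over the mean of the 4 lines G6Gm, G3, Dlx3RNAi and R1. Over all 11991 genes, 57.8% passed, against 54.1% of the Wnt genes, so the share that changed was near the background. Of all genes 28.7% rose and 29.1% fell. The median log2 change was -0.18 for the Wnt genes and 0.03 for all genes. Line by line, 5 rose and 14 fell in G6Gm (40.2% of all genes passed), 5 and 17 in G3 (52.3%), 7 and 13 in Dlx3RNAi (48.3%) and 5 and 16 in R1 (53.2%). Among secreted inhibitors 4 of 5 fell and 1 rose, among receptors 3 of 9 fell, and among ligands with Porcn 4 of 13 fell and 2 rose.

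Dkk2, which blocks or in some settings activates Lrp6, gave 369 and 356 in G6Gm, 159 and 201 in G3, 348 and 347 in Dlx3RNAi, 285 and 183 in R1, against 4215 and 3760.2 in MEF. All 8 line arrays lay far below both MEF arrays. The difference was -3.74 ± 0.13 (log2, SE; limma, adjusted p 1.98e-20). Sfrp2, a secreted Wnt-binding protein, ranged from 237 to 560 with a median of 353 over the 8 line arrays, against 2498 and 2581 in MEF, a log2 change of -2.72 ± 0.16 (limma, adjusted p 2.13e-15). Rspo2, a secreted amplifier of Wnt signalling, ranged from 76.1 to 115 in the lines, against 1183 and 1398 in MEF, a log2 change of -3.32 ± 0.14 (limma, adjusted p 8.14e-19). In the lines its probe stood at percentile 19.4 to 25.8 of all probes by line mean, near the dim end of the array.

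Sfrp1, another secreted Wnt-binding protein, gave 1139 and 977 in G6Gm, 2368 and 2079 in G3, 1406 and 1559 in Dlx3RNAi, 1742 and 1437 in R1, against 3727 and 3515 in MEF. The groups did not overlap, and the log2 change was -1.22 ± 0.21 (limma, adjusted p 8.07e-06). Dkk3, a divergent member of its family, fell by 1.25 ± 0.20 (log2, SE) over the 4 lines, but the lines split, as described below. Sfrp5 rose by 0.99 on the log2 scale, with 80.6 to 148 in the lines and 41.7 and 34.5 in MEF, all below the array's median.

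Among receptors, Fzd1 ranged from 105 to 377 in the lines, against 1075 and 1135 in MEF, a log2 change of -2.10 ± 0.19. Fzd3 ranged from 61.3 to 77.3 in the lines, against 258 and 257 in MEF (log2 change -1.52), and Fzd8 from 74.5 to 148, against 350 and 430 (log2 change -1.55). Fzd7, bright in every group, gave 3579 to 7689 in the lines and 5008 and 6935 in MEF, and did not pass over the mean of the lines. The other 5 receptors did not pass either, but for Fzd2 that holds for its brighter probe, with a log2 difference of -0.31. Its second probe averaged 323 in G6Gm, 240.4 in G3, 426 in Dlx3RNAi and 199 in R1, against 1331 in MEF, and with the mean of each gene's probes 6 Wnt genes rose and 16 fell in the lines. Among ligands, Wnt10a (log2 change -1.96), Wnt2 (-1.35), Wnt5b (-1.24) and Wnt7a (-0.89) fell and Wnt6 (0.68) rose, and by group mean all 5 lay below the array's median in every group of this set. Wnt10a, the largest fall among the ligands, ranged from 18.0 to 66.0 in the lines, against 229 and 258 in MEF.

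The TCF factors moved apart. Tcf7, an activating partner of beta-catenin and also a Wnt target, gave 278 and 263 in G6Gm, 409 and 404 in G3, 181 and 206 in Dlx3RNAi, 357 and 329 in R1, against 113 and 121 in MEF. All line arrays lay above both MEF arrays, and the log2 change was 1.13 ± 0.13 (limma, adjusted p 2e-08). Tcf7l2 gave 124 to 184 in the lines, against 483 and 491 in MEF, a log2 change of -1.47 ± 0.19 (limma, adjusted p 2.46e-06). Tcf7l1 had no value in this set.

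Axin2, a scaffold of the destruction complex and a widely used readout of the pathway, gave 190 and 165 in G6Gm, 237 and 220 in G3, 205 and 243 in Dlx3RNAi, 231 and 323 in R1, against 106 and 94.4 in MEF. Each line array exceeded both MEF arrays, with a log2 change of 0.95 ± 0.17 (limma, adjusted p 1.69e-05). Axin1, its constitutively made relative, fell, with 247 to 370 in the lines, against 619 and 637 in MEF, a log2 change of -0.96 ± 0.20. Ctnnb1 ranged from 5638 to 9201 in the lines, against 7898 and 7074 in MEF, and its log2 difference was -0.09 ± 0.13 (limma, adjusted p 0.56). Porcn was 2042 and 2034 in G3 and 731 to 1158 in the other lines, against 587 and 646 in MEF, a log2 change of 0.89 ± 0.25 (limma, adjusted p 0.00274).

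**Figure D1:**
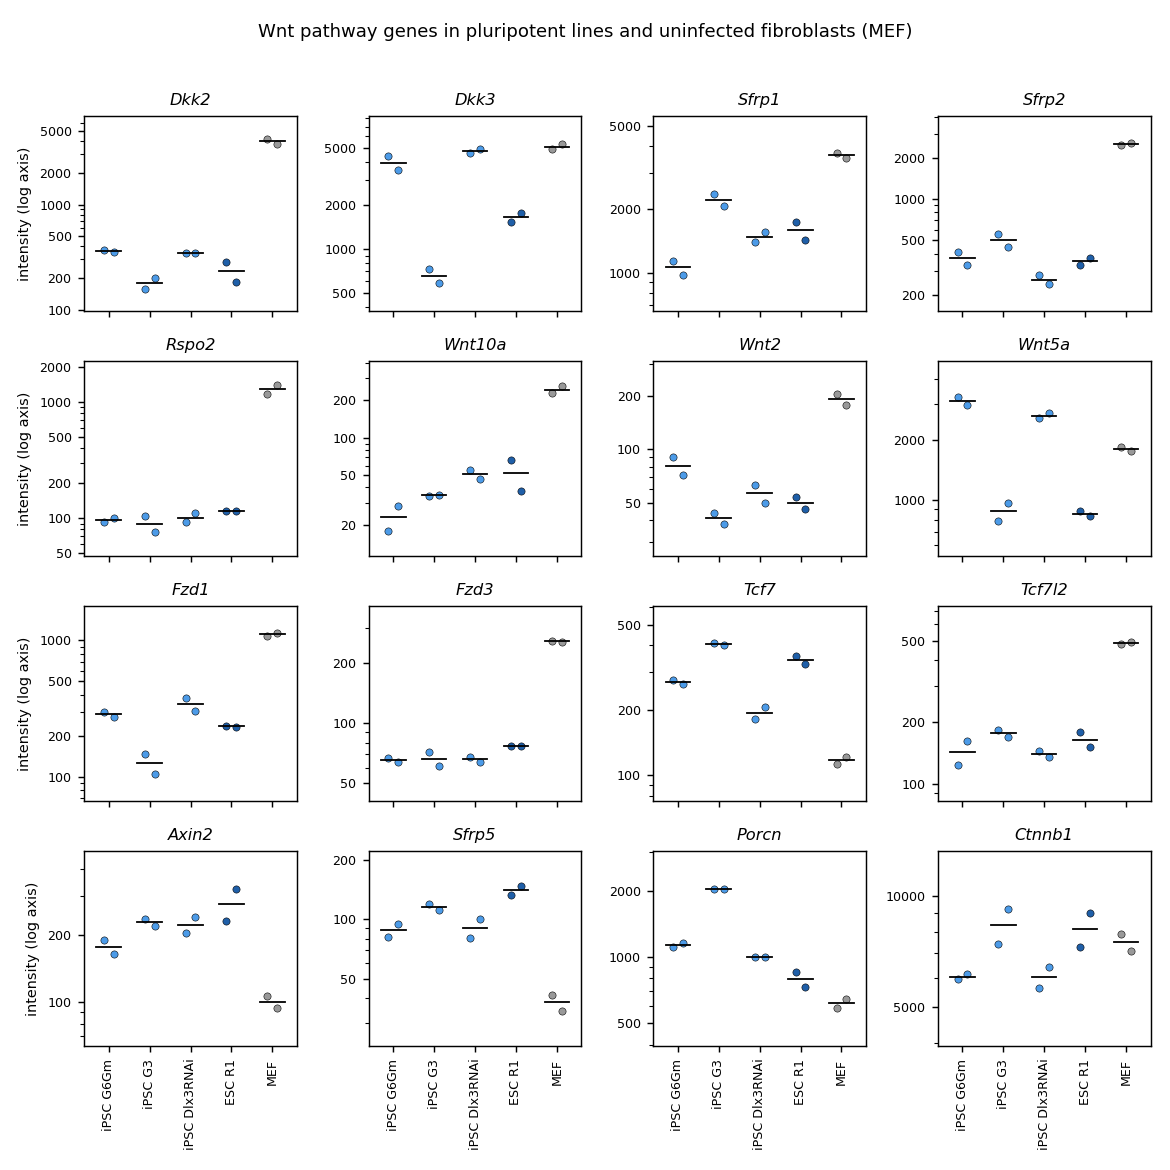
Intensity (log axis) of 16 Wnt pathway genes on each array of the iPSC lines, ESC line R1 and uninfected MEF, with bars at the group mean. Dkk2, Sfrp2 and Rspo2 lie far above the lines in MEF, and Tcf7 and Axin2 lie above MEF in every line array.

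Of 57 other pathway genes listed for this work, 41 were tested, and 6 rose and 19 fell in the lines, a share near the 57.8% of all genes that passed. The R-spondin receptor and target Lgr5 fell by 4.52 ± 0.22 (log2, SE), the polarity gene Prickle2 fell by 2.22 ± 0.11 and the Wnt carrier Wls fell by 1.93 ± 0.13, and the co-repressor gene Ctbp2 rose by 1.86 ± 0.25. Of 23 beta-catenin target genes on a second list, 15 were tested, and 3 rose and 7 fell, against the same 57.8%. Ccn4 fell by 2.11, Ccnd1 fell by 2.07 and Ccn5 fell by 2.04 on the log2 scale, while Bmp4 rose by 1.70. The lists share 6 genes, among them Lgr5. Axin2 and Tcf7, which are also targets, are counted with the pathway genes above.

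Between pluripotent lines, Wnt5a and Dkk3 separated G6Gm and Dlx3RNAi from G3 and R1. Wnt5a, a ligand best known for noncanonical signalling, gave 3263 and 2956 in G6Gm, 793 and 970 in G3, 2549 and 2709 in Dlx3RNAi and 880 and 838 in R1, and 1838 and 1749 in MEF. G6Gm and Dlx3RNAi lay above MEF (log2 change 0.78 and 0.54) and G3 and R1 below it (-1.01 and -1.03), each with an adjusted p under the threshold. Against R1, the 3 iPSC lines had a Wnt5a log2 change of 1.14 ± 0.12 (limma, adjusted p 8.59e-08), but G3 alone gave 0.03 ± 0.15 (limma, adjusted p 0.963). Dvl1 (0.43) was the other gene that passed in that comparison, in which 2 of 37 Wnt genes rose and 0 fell, where 7.2% of all genes rose and 6.35% fell.

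Dkk3 gave 4366 and 3490 in G6Gm, 724 and 580 in G3, 4618 and 4925 in Dlx3RNAi and 1538 and 1776 in R1, against 4894 and 5282 in MEF. G6Gm exceeded R1 by 1.22 and Dlx3RNAi exceeded R1 by 1.51 on the log2 scale, and G3 lay below R1 by a log2 change of -1.31. In these comparisons 7 (G6Gm), 4 (G3) and 8 (Dlx3RNAi) of 37 genes passed against R1, where 17.6%, 8.33% and 19.4% of all genes did. Leaving out 1 array moved these counts to 2 to 4 for G6Gm, 1 to 2 for G3 and 4 to 6 for Dlx3RNAi. Between iPSC lines, 10 passed in G6Gm against G3 (19.7% of all genes), 11 in Dlx3RNAi against G3 (25.3%) and 0 in Dlx3RNAi against G6Gm (2.84%). Leaving out 1 array moved the first to 5 to 7 and the second to 7 to 9. In the last comparison 7 had an unadjusted p under 0.05 in limma. When the set was fitted alone, 4 of the 37 passed, where 1791 of all 11991 genes did.

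Fibroblast markers ran in the order of Dkk3 over these groups, but not in that of Wnt5a. The summed intensity of 13 measured fibroblast markers of 16 listed was 40406 to 41846 in G6Gm, 14907 to 15166 in G3, 50301 to 56126 in Dlx3RNAi and 26604 to 28236 in R1, against 75502 to 81758 in MEF. None of the 13 was at 0, and 9, 8, 9 and 8 of them lay above the array median in these lines. The lines were grown on MEF feeder cells, and the part of those cells in the levels of Wnt5a and Dkk3 was not tested. Wnt5a in G6Gm and Dlx3RNAi was higher than in the uninfected MEF, but the mitomycin C-treated feeder cells were on no array. Their own levels of these genes are not known. In such bulk samples fewer cells of a type and less RNA per cell cannot be told apart. Of 10 listed pluripotency markers 5 were measured. They summed to 11765 to 12404 in G6Gm, 15657 to 17311 in G3, 9993 to 10706 in Dlx3RNAi and 17487 to 17897 in R1. In MEF they summed to 675 to 683. Against G3, 2 of these 5 fell in G6Gm and 4 in Dlx3RNAi, and 0 rose in either. Their part was not tested.

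**Figure D2:**
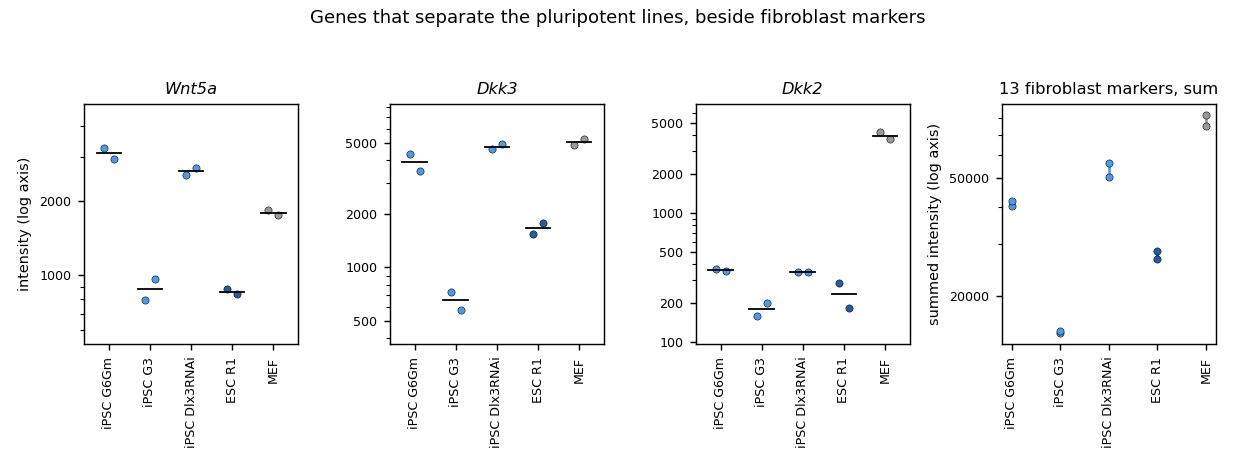
Intensity (log axis) of Wnt5a, Dkk3 and Dkk2 on each array, and the summed intensity of 13 fibroblast markers (2 arrays a group), for the iPSC lines, ESC line R1 and uninfected MEF. Wnt5a and Dkk3 are high in G6Gm and Dlx3RNAi and low in G3 and R1, as the marker sum is, while Dkk2 is low in all 4 lines.

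ESC line B6 was normalised alone and was tested against no other group. Percentiles of its probes are set beside those of R1 as a description, since they are taken over 15859 probes in B6 and 14394 in R1. Its Ctnnb1 probe lay at percentile 98.3 of all probes with a value (R1 98.0), Fzd7 at 96.7 (R1 96.6) and Porcn at 90.5 (R1 72.1). Tcf7 lay at percentile 75.5 and Axin2 at 62.9 in B6, and at 53.6 and 48.0 in R1. Tcf7l1, which R1's set lacks, lay at percentile 84.4 with 3344 ± 71.1 (SD, n = 3). Sfrp1 at 2768 ± 123.4 and Sfrp2 at 2071 ± 59.0 (SD, n = 3) lay at percentile 81.7 and 77.2. Of 11 fibroblast markers measured in B6, 0 lay above the array median. Dkk3 at percentile 31.5, Wnt5a at 33.5, Dkk2 at 32.6 and Rspo2 at 19.3 were in the lower part of the array.

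Infection with SKM lowered both R-spondins and Sfrp2 and raised Wnt7a. In EV+SKM against MEF1 EV, 4 of 32 genes rose and 7 fell, which is 34.4% of them against 19.7% of all genes (9.99% rose and 9.69% fell). Rspo2 gave 5880 and 5288 in EV+SKM against 24106 and 24266 in MEF1 EV, a log2 change of -2.11 ± 0.17 (limma, adjusted p 4.91e-11). Rspo3 gave 713 and 925 against 3450 and 3912, a log2 change of -2.13 ± 0.15 (limma, adjusted p 1.91e-09). Sfrp2 gave 20716 and 18989 against 60670 and 49915, a log2 change of -1.47 ± 0.20. For these genes the arrays of the groups lay well apart.

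Wnt2, a canonical ligand, gave 350 and 252 in EV+SKM against 1143 and 1109 in MEF1 EV, a log2 change of -1.81 ± 0.19 (limma, adjusted p 8.7e-09). Wnt7a gave 276 and 254 against 73.0 and 76.1, a log2 change of 1.48 ± 0.19 (limma, adjusted p 3.16e-07). Fzd5 fell by 1.93 ± 0.39 (log2, SE), with 155 and 258 in EV+SKM against 778 and 944 in MEF1 EV. With the mean of its probes the Fzd5 log2 change was -1.0005. Tcf7 rose by 0.94 ± 0.17 and Tcf7l1 fell by 0.84 ± 0.18, while Ctnnb1 (-0.03, adjusted p 0.933) and Axin2 (0.14, adjusted p 0.723) did not pass. The other changed genes were Wnt5a (-0.56), Dvl1 (0.63) and Wnt9a (0.72). Fzd2 did not pass on its brighter probe, with means of 6767 in EV+SKM and 6763 in MEF1 EV. Its second probe averaged 3391 in EV+SKM, against 6298 in MEF1 EV.

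Among the other pathway genes, 1 of 33 tested rose and 6 fell, where 19.7% of all genes passed. Nkd2, an antagonist of dishevelled, rose by 1.52, while Prickle2 fell by 1.30 and Lgr5 fell by 1.07 on the log2 scale. Of 16 target genes tested, 1 rose and 4 fell, with Jag1 (-1.20) and Id2 (-1.16) as the largest. The 13 fibroblast markers summed to 155920.0 to 164456 in EV+SKM, against 205516 to 205893 in MEF1 EV. The 6 measured keratinocyte markers summed to 110192 to 115365, against 3802 to 3835, and none was at 0. Their part in the result was not tested.

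With OCT4 added, Wnt2 was above both controls. It gave 1877 and 1967 in OCT4+SKM, against 350 and 252 in EV+SKM, a log2 change of 2.57 ± 0.19 (limma, adjusted p 2.1e-11). Against MEF1 EV it was higher by 0.75 ± 0.19 (log2, SE; limma, adjusted p 0.00371). Sfrp1 gave 5082 and 4875 in OCT4+SKM, against 14201 and 17298 in EV+SKM, a log2 change of -1.65 ± 0.26, and Wnt7a 93.5 and 70.3 against 276 and 254, a log2 change of -1.39 ± 0.19. Wnt9a and Dvl1 fell and Dkk2 rose (0.73), so that 2 of 32 rose and 4 fell (18.8%, against 11% of all genes). Ctnnb1 (-0.08), Axin2 (-0.15), Tcf7 (-0.35) and Tcf7l1 (0.03) did not pass. Against MEF1 EV 3 rose and 8 fell (22.4% of all genes passed), among them Sfrp1 (-2.32), Rspo3 (-2.03), Sfrp2 (-1.95), Rspo2 (-1.62), Fzd5 (-1.34) and Fzd1 (-1.11). With OCT4+SKM the keratinocyte markers summed to 62462 to 66816, against 110192 to 115365 in EV+SKM, and 2 of the 6 fell. Their part was not tested. The Fzd5 fall had a log2 change of -0.74 with the mean of its probes, and lost its call when the second MEF1 EV array or either OCT4+SKM array was left out (adjusted p 0.0600 to 0.0884).

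The substitutes for OCT4 were set against EV+SKM, which all of these comparisons share, so agreement among them is not independent. Wnt2 rose in 5 of the 9 comparisons with EV+SKM and fell in 1. Its arrays gave 3579 and 3477 with GATA6, 1762, 1572 and 1590 with GATA4, and 1378 and 1501 with MIXL1, against 350 and 252 in EV+SKM. Its log2 change was 3.43 ± 0.19 with GATA6, 2.34 ± 0.17 with GATA4 and 2.16 ± 0.19 with MIXL1 (limma, adjusted p 4.2e-15, 2.81e-12 and 4.44e-09). With SOX7 it gave 185 and 158 and fell by 0.70 on the log2 scale. With HNF4a (439 and 459) it rose by 0.54. With PAX1 (365 and 310), CEBPa (414 and 394) and GRB2 (443 and 327) it did not pass.

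GATA6 with SKM lowered Rspo2, which EV+SKM had already lowered. Rspo2 gave 633 and 565 in GATA6+SKM, against 5880 and 5288 in EV+SKM, a log2 change of -3.15 ± 0.17 (limma, adjusted p 4.2e-15). In contrast Wnt7a gave 978 and 909, against 276 and 254, a log2 change of 1.71 ± 0.19. Fzd6 gave 791 and 1020, against 183 and 345, a log2 change of 1.71 ± 0.21. In all, 6 of 32 rose and 4 fell (31.2%, against 22% of all genes), Rspo3, Wnt9a and Dkk2 being the other rises and Wnt5a, Sfrp2 and Ctnnb1 (-0.58) the other falls. Axin2, Tcf7 and Tcf7l1 did not pass. Without the second GATA6+SKM array, 6 passed. Sox17, a target and an endoderm factor, rose by 4.05 ± 0.20 (log2, SE). The fibroblast markers summed to 76421 to 77859 in GATA6+SKM, against 155920.0 to 164456 in EV+SKM. The 3 measured epithelial markers of 10 listed summed to 38169 to 45625 in GATA6+SKM, against 8869 to 13146 in EV+SKM, and 2 of them rose. The part of these cells was not tested.

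SOX7 with SKM lowered both Sfrp genes. Sfrp2 gave 1881 and 2011 in SOX7+SKM, against 20716 and 18989 in EV+SKM, a log2 change of -3.33 ± 0.20 (limma, adjusted p 1.13e-13). Sfrp1 gave 5388 and 4756, against 14201 and 17298, a log2 change of -1.62 ± 0.26. Dkk2 gave 21649 and 22416, against 9748 and 10955, a log2 change of 1.09 ± 0.17. Axin2 fell (-0.73) with 159 and 235, against 384 and 304, and Fzd6 rose (1.14), a call lost without the first EV+SKM array (adjusted p 0.0533). In all 3 rose and 4 fell (21.9%, against 12.1% of all genes), and 3 passed without that array. Sostdc1, a secreted Wnt and BMP inhibitor on the pathway list, rose by 3.56 ± 0.30, and Frzb, another Sfrp relative, by 1.16 ± 0.14 (log2, SE). The fibroblast markers summed to 123931 to 127216 in SOX7+SKM, against 155920.0 to 164456 in EV+SKM, and 2 of 13 fell. Of 3 measured epithelial markers 1 rose and 1 fell. Their part was not tested.

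PAX1 with SKM raised Sfrp1, to 32386 and 31203, against 14201 and 17298 in EV+SKM (log2 change 1.02 ± 0.26), and lowered Wnt7a, to 108 and 90.04, against 276 and 254 (log2 change -1.18 ± 0.19). Rspo2, Rspo3, Wnt5a and Tcf7l1 (0.70) rose and Dvl1 fell, so that 5 of 32 rose and 2 fell (21.9%, against 15.7% of all genes). Ctnnb1 (0.41), Axin2 (-0.45) and Tcf7 (-0.29) did not pass. Without the first EV+SKM array 4 passed, and without the first PAX1+SKM array 2 passed. The Sfrp1 call was lost in both cases, with adjusted p 0.0971 and 0.0609. With PAX1+SKM the keratinocyte markers summed to 19437 to 22076, against 110192 to 115365 in EV+SKM, and 4 of 6 fell. The epithelial markers summed to 3909 to 4304, against 8869 to 13146, and 2 of 3 fell. Their part was not tested. MIXL1 with SKM changed 2 of 32 genes (6.25%, against 2.1% of all genes), Wnt2 above and Sfrp1. Sfrp1 gave 7196 and 7759, against 14201 and 17298 (log2 change -1.07 ± 0.26; limma, adjusted p 0.02), and lost its call when any 1 array was left out (adjusted p 0.0692 to 0.181).

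GATA4 with SKM, on 3 arrays, lowered more of the 32 Wnt genes than the other 8 factors set against EV+SKM, from the ligands down to the TCF factors. Of 32 genes, 5 rose and 21 fell (81.2%), where 53.8% of all genes passed, 29% rising and 24.8% falling. The median log2 change was -0.70 for the Wnt genes and 0.06 for all genes. Of 11 ligands with Porcn 8 fell, of 6 cytoplasmic components 5 fell, and both TCF factors fell. Sfrp2 gave 4711, 5069 and 5052 in GATA4+SKM, against 20716 and 18989 in EV+SKM, a log2 change of -1.998 ± 0.180 (limma, adjusted p 2.06e-10). Axin2 gave 99.4, 136 and 137, against 384 and 304, a log2 change of -1.27 ± 0.19 (limma, adjusted p 3.55e-06), and Ctnnb1 4326, 4589 and 4379, against 7214 and 6378 (-0.61). None of these arrays overlapped between the groups.

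Fzd2 (-1.52), Dvl3 (-1.48), Wnt1 (-1.24), Dvl1 (-1.16), Wnt5a (-1.12), Wnt2b (-1.12) and Rspo2 (-1.03) also fell at least 2-fold with GATA4, and Tcf7 (-0.36) and Tcf7l1 (-0.41) fell by less. The rises were Wnt2, Fzd6 (1.94 ± 0.19, with 1137, 1047 and 1011 in GATA4+SKM, against 183 and 345 in EV+SKM), Fzd5 (1.49 ± 0.36, and 0.72 with the mean of its probes), Rspo3 (1.22 ± 0.14) and Axin1 (0.63). The Axin1 rise and the Fzd2 fall are those of the brighter probe. The second Axin1 probe averaged 54.6 in GATA4+SKM, against 70.5 in EV+SKM, and the second Fzd2 probe 2207, against 3391. With the mean of each gene's probes 4 of the 32 genes rose and 21 fell. Sostdc1 rose by 4.92 ± 0.27 on the log2 scale, and Id2 fell by 1.86 ± 0.21. Of the other pathway genes 6 of 33 rose and 12 fell, and of the target genes 3 of 16 rose and 7 fell. Over all genes 53.8% passed, so the shares of both lists were near the background. Without the first EV+SKM array 17 of the 32 genes passed. The share of all genes without that array was not counted. The fibroblast markers summed to 108126 to 114396 in GATA4+SKM, against 155920.0 to 164456 in EV+SKM. The keratinocyte markers summed to 32370.0 to 34866 in GATA4+SKM, against 110192 to 115365 in EV+SKM, and 5 of 6 fell, with a median log2 change of -2.02. The part of either was not tested.

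CEBPa, HNF4a and GRB2 with SKM raised Sfrp1 and lowered Dkk2, in 3 comparisons that share EV+SKM and so are given side by side. Sfrp1 gave 39032 and 42753 with CEBPa, 43022 and 46950.2 with HNF4a and 34956.5 and 34670.0 with GRB2, against 14201 and 17298 in EV+SKM, with log2 changes of 1.38, 1.52 and 1.15 (SE 0.26 each). Dkk2 lay between 4942 and 5056 on all 6 arrays, against 9748 and 10955 in EV+SKM, with log2 changes of -1.03, -1.05 and -1.05 (SE 0.17). Dvl2 fell, with log2 changes of -1.503, -1.44 and -1.53, and Wnt1 fell, with -1.10, -1.35 and -1.16. Ctnnb1 rose by 0.48, 0.80 and 0.67. These 6 arrays lay on the same side of the EV+SKM arrays for each of these genes. The keratinocyte markers summed to 40608 to 41812 with CEBPa, 22487 to 23093 with HNF4a and 29648 to 30180.3 with GRB2, against 110192 to 115365 in EV+SKM, and 5, 6 and 6 of 6 fell. The epithelial markers summed to 2024 to 3291 over the 3 groups, against 8869 to 13146 in EV+SKM, with 2 of 3 down in each. Their part was not tested.

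In all, 6 of 32 rose and 5 fell with CEBPa (34.4%, against 34.6% of all genes), 7 rose and 10 fell with HNF4a (53.1%, against 42.5%), and 6 rose and 7 fell with GRB2 (40.6%, against 40.3%), shares at or little above those of all genes. Without the first EV+SKM array 7, 10 and 8 passed, without the second CEBPa+SKM array 6, without the second HNF4a+SKM array 11, and without the first GRB2+SKM array 8. Axin2 fell with HNF4a (214 and 197, against 384 and 304) and GRB2 (188 and 227), both by 0.65 on the log2 scale. With CEBPa (-0.19) it did not pass. Tcf7 passed in none of the 3, and Tcf7l1 rose only with HNF4a (0.45). Wnt7b fell with HNF4a (-1.30) and GRB2 (-1.25), and Dvl3 with HNF4a (-1.22). Axin1 rose by 1.13, 1.39 and 1.21 on its brighter probe, but its second probe gave 54.4, 95.4 and 69.9, against 70.5 in EV+SKM, and with the mean of the probes CEBPa did not pass (adjusted p 0.0964) and GRB2 gave 0.60. Calls for Wnt1 with CEBPa and GRB2, Dvl3 with HNF4a and Wnt7b with GRB2 were also lost when 1 array was left out (adjusted p 0.0534 to 0.134). Among other pathway genes Sostdc1, Apcdd1 and Ptk7 rose in each, by 3.14, 1.88 and 1.51 with CEBPa.

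Over the 9 factors added to SKM, Fzd6 rose in 6 comparisons and fell in 0, Rspo3 rose in 5 and fell in 0, and Axin2, Wnt1, Wnt3, Dvl1 and Dvl2 each fell in 4 and rose in 0. Dkk3, Fzd1, Fzd9, Wnt8b and Wnt9b passed in none of the 9. Sfrp1 rose in 4 and fell in 3. These counts share EV+SKM as their control and are a description of it as much as of the factors. Over all genes the share that passed ran from 2.1% with MIXL1 to 53.8% with GATA4. How often a gene outside the list passed in the 9 was not counted, so these counts set no Wnt gene apart. They rest on the brightest probe of each gene. By group mean, the second Fzd2 probe ran from 1790 with SOX7 to 5614 with PAX1, against 3391 in EV+SKM.

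**Figure D3:**
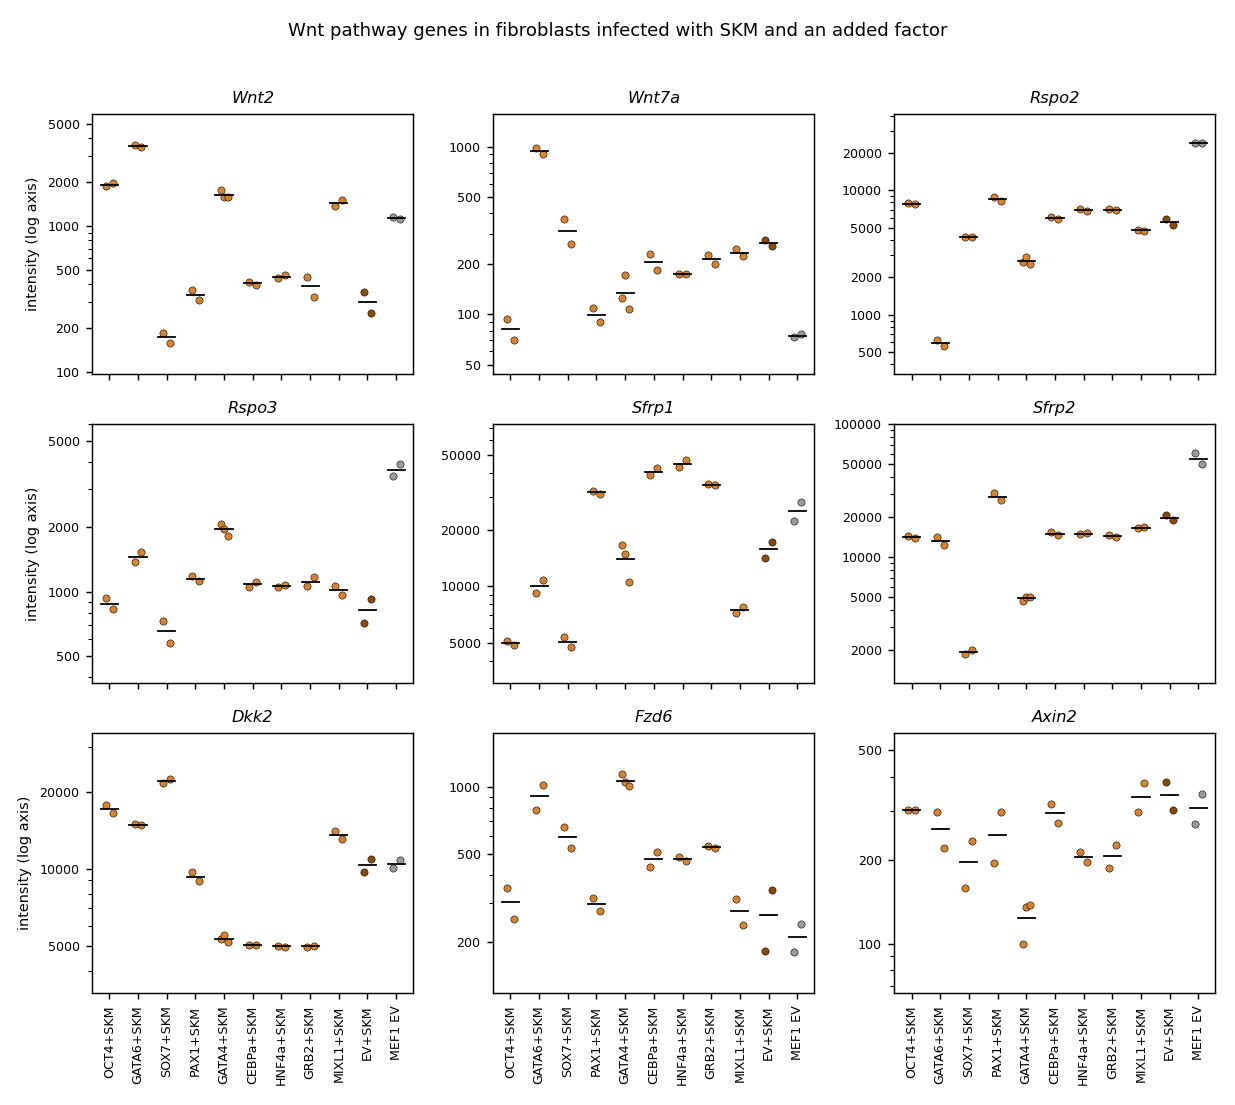
Intensity (log axis) of 9 Wnt pathway genes on each array of the SKM groups, with EV+SKM and MEF1 EV at the right and bars at the group mean. Wnt2 is high with OCT4, GATA6, GATA4 and MIXL1, Rspo2 is lowest with GATA6, Sfrp2 is lowest with SOX7, and Sfrp1 is highest with HNF4a.

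**Figure D4:**
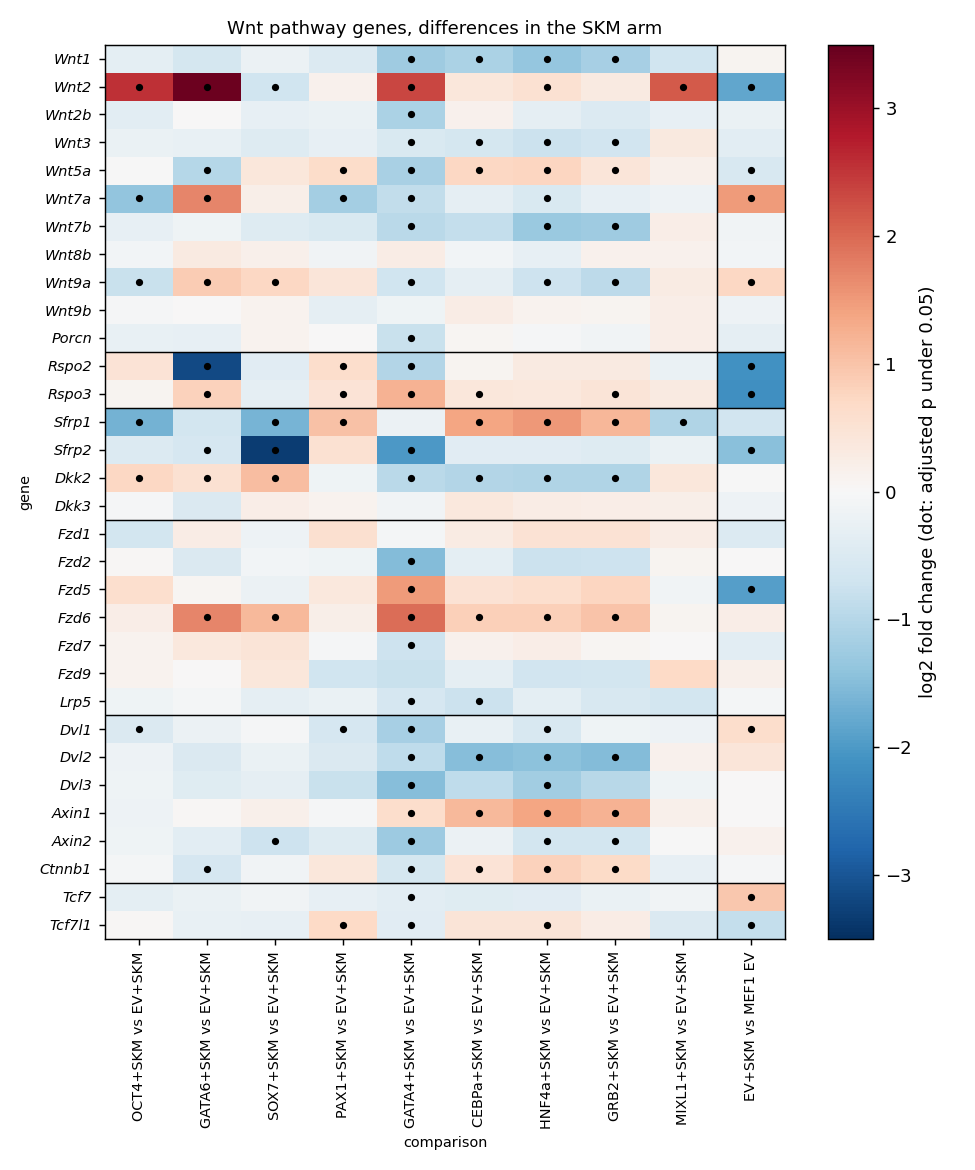
Log2 fold change (colour) of the 32 Wnt pathway genes for each added factor against EV+SKM, and for EV+SKM against MEF1 EV, with dots where the adjusted p is under 0.05. Lines part ligands with Porcn, R-spondins, secreted inhibitors, receptors, cytoplasmic components and TCF factors, and most dots in the GATA4 column are falls.

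GATA4 and GATA6, zinc-finger factors of the same family, were compared with each other directly, and 4 of 32 genes were higher and 12 lower with GATA4 (50%, against 43.2% of all genes). Rspo2 gave 2648, 2932 and 2582 in GATA4+SKM, against 633 and 565 in GATA6+SKM, a log2 difference of 2.12 ± 0.16 (limma, adjusted p 6.41e-12). Wnt7a gave 124, 171 and 108 in GATA4+SKM, against 978 and 909 in GATA6+SKM, a difference of -2.57 ± 0.17 (limma, adjusted p 4.24e-13). Dkk2 (-1.47) and Wnt9a (-1.59) were also lower with GATA4. Axin2 was lower by a log2 difference of -0.90 ± 0.19, and Ctnnb1, Tcf7 and Tcf7l1 did not pass. The keratinocyte markers summed to 32370.0 to 34866 with GATA4 and 98462 to 104423 with GATA6, with 5 of 6 lower with GATA4. The epithelial markers summed to 9949 to 11563 and 38169 to 45625, with 2 of 3 lower and 1 higher. The fibroblast markers summed to 108126 to 114396 and 76421 to 77859, with 6 of 13 higher and 0 lower. Their part was not tested.

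OKM with EV raised Dkk2, Fzd7 and Tcf7 over MEF2 EV. Dkk2 gave 36437, 32946 and 23197 in OKM+EV, against 10043 and 10927 in MEF2 EV, a log2 change of 1.53 ± 0.15. Fzd7 gave 9218, 9680 and 8001, against 3111 and 3286, a log2 change of 1.47 ± 0.18, and Tcf7 245, 201 and 168, against 64 and 67.8, a log2 change of 1.26 ± 0.15. In each the groups did not overlap. These 3 were the genes that passed both in the fit over all arrays (limma, adjusted p 1.46e-09, 5.56e-08 and 7.05e-08) and in a fit of this set alone (limma, adjusted p 0.0201, 0.0163 and 0.0456).

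The third OKM+EV array stood apart from the others, with correlations of 0.843 and 0.884 to them where they had 0.986 with each other. In the fit over all arrays 10 of 40 genes were above and 7 below, where 40.8% of all genes passed. That fit shares 1 estimate of the spread over all 5 sets and called many unchanged genes when tested on data made with this set's spread, so its counts here are too high. The set fitted alone passed 3 of the 40 genes, where 663 of all 11947 genes passed. In the same test this fit called no unchanged gene but missed nearly all changed ones. Fitted alone without the third array, a step chosen after the data were seen, the set passed 20 genes, and 23 of the 40 passed in the fit over all arrays without it. How many of all genes passed without the third array was not counted. Without the second MEF2 EV array, the fit over all arrays passed 10.

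Wnt5a gave 1696, 1710 and 1504 in OKM+EV, against 802 and 782 in MEF2 EV, and Tcf7l1 417, 535 and 506, against 1091 and 954. Their log2 differences were 1.02 and -1.03, with adjusted p 0.0908 and 0.127 in the set alone. Ctnnb1 gave 7190 and 6576 on the first and second OKM+EV arrays and 11236 on the third, against 4459 and 3565 in MEF2 EV, a difference of 1.02 with adjusted p 0.113 in the set alone. Porcn gave 3367 and 2700 on the first and second arrays and 910 on the third, against 1064 and 897, so that its direction rests on those first arrays. Axin2 gave 160, 162 and 198, against 141 and 138, and did not pass in any of these fits. The 5 measured macrophage markers summed to 1148 to 5319 in OKM+EV, against 61493 to 64308 in MEF2 EV, and 7 keratinocyte markers to 46147 to 73546, against 3155 to 3852. All 5 macrophage markers lay above the array median in MEF2 EV and 0 of them in OKM+EV. Their part in these differences was not tested. The 5 measured pluripotency markers summed to 1333 to 1561 in OKM+EV, against 1414 to 1559 in MEF2 EV.

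**Figure D5:**
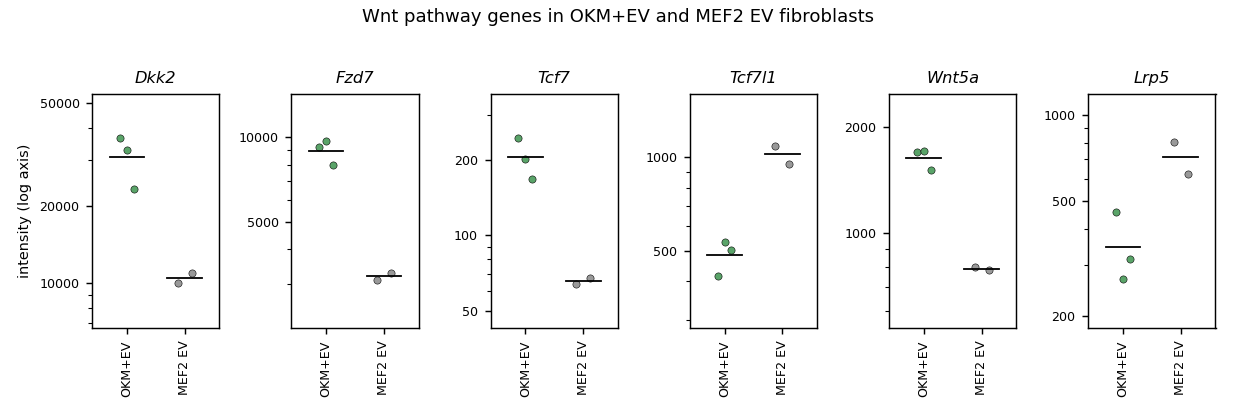
Intensity (log axis) of 6 Wnt pathway genes on the 3 OKM+EV and 2 MEF2 EV arrays, with bars at the group mean. Dkk2, Fzd7 and Tcf7 are higher on all OKM+EV arrays and passed in both fits, and Wnt5a, Tcf7l1 and Lrp5 are shown with no call in the set alone.

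SOX1, SOX3 and GMNN with OKM, set against OKM+SOX2, gave few differences. In the fit over all arrays 4, 2 and 3 of 38 genes passed, where 5.72%, 6.31% and 7.23% of all genes did, and in the same test, run for GMNN, this fit also called too many unchanged genes. In a fit of this set alone 0 passed, where 24, 27 and 227 of all 11188 genes did. Among the 38 genes there were 7, 7 and 6 with an unadjusted p under 0.05 in limma. Wnt7a gave 142 and 163 with SOX1, 254 and 205 with SOX3 and 165 and 212 with GMNN, against 63.8 and 101 with SOX2, which was the lowest group. The log2 differences were 0.71, 1.21 and 0.96, and for SOX3 the set alone gave adjusted p 0.13. Without the second OKM+SOX1 array or the first OKM+SOX2 array, 0 genes passed for SOX1, without the first OKM+SOX3 array 1 passed for SOX3, and without the second OKM+SOX2 array 5 did. Ctnnb1, Axin2, Tcf7 and Tcf7l2 did not pass for any of the 3, and Tcf7l1, with 454 and 350 with SOX1 against 795 and 600 with SOX2, passed only in the fit over all arrays. Rspo2 gave 4263 and 4245 with GMNN, against 6084 and 9412 with SOX2 (log2 difference -0.83), likewise only in that fit. The 4 measured macrophage markers summed to 3338 to 3787 with SOX1, 5078 to 5366 with SOX3 and 6519.7 to 6845 with GMNN, against 949.7 to 1299 with SOX2, and in the fit over all arrays 3 of 4 passed upward in each. The 7 keratinocyte markers summed to 108675 to 111903 with GMNN, against 40543 to 41071 with SOX2. Their part was not tested.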

How the data were processed

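The 49 arrays carry 1 colour, Cy5, per the labels. The deposited values are probe intensities on a linear scale, normalised by the authors. What method and software they used is not given in the sources used here. Sorted values coincide within 5 sets of arrays and differ between them, so tests stayed within a set. Of 19426 probes, 15539 had 1 gene symbol in the platform annotation, of which 13971 were current, 1538 were updated through a unique synonym and 30 were kept. The probe with the highest mean stood for each gene. Limma 3.58.1 in R 4.3.3 fitted group means over all 49 arrays on log2(intensity + 32), with trended eBayes, for 28 two-sided contrasts, each adjusted (Benjamini-Hochberg) over all its genes with a threshold of 0.05. The number of arrays limits the precision.

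The fit was tested on simulated data. It made few false calls in the sets of MEF1 and of uninfected MEF, but many in the OKM sets, most in OKM+EV against MEF2 EV. A fit of each set alone is therefore given beside it there; it made few or no false calls but missed most changes in OKM+EV. Genes past the threshold with a log2 change of at least 1 were described in full, with Ctnnb1, Axin2, Tcf7, Tcf7l1 and Tcf7l2 whatever their change, and up to 6 genes of each further list. The genes and lists were chosen with earlier results of these data known. Alternatives were 16 and 64 added before log2, a filter on dim genes, quantile normalisation within a set, no intensity trend, each set alone, the mean of a gene's probes, a replicate block and each array left out. Promoter sequences are from RefSeq, GRCm38.p6.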

Additional observations from a re-analysis of the deposited data

Results flagged for a closer look

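Between pluripotent lines, the effect against the shared MEF differed for several genes by a direct test of 1 line against the other in limma. Set against G3, G6Gm had log2 differences of 2.53 in Dkk3, 1.79 in Wnt5a, 1.04 in Fzd1 and -1.05 in Sfrp1. Dlx3RNAi against G3 had 2.82 in Dkk3, 1.55 in Wnt5a and 1.25 in Fzd1. In G6Gm against G3, Fzd1 was no longer called without the second G3 array, and Sfrp1 without the second G6Gm array.

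Between GATA4+SKM and GATA6+SKM, 11 genes with a log2 difference of at least 1 passed. GATA4 was above GATA6 in Rspo2 (2.12) and Fzd5 (1.43, or 0.72 with the mean of its probes). It was below GATA6 in Wnt7a (-2.57), Wnt9a (-1.59), Dkk2 (-1.47), Sfrp2 (-1.41), Wnt2b (-1.12), Wnt2 (-1.09), Fzd7 (-1.07), Dvl3 (-1.05) and Fzd2 (-1.02). The Dvl3 call was lost without either GATA6+SKM array or without the first or second GATA4+SKM array. The Fzd2 call was lost without the first array of either group, and with the mean of its probes (-0.42). The brighter Fzd2 probe averaged 2415 with GATA4 and 4899 with GATA6. Its second probe went the other way, with 2207 and 1949, so the direction for Fzd2 rests on the brighter probe.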

How the results depend on the processing

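Of 160 changes of at least 2-fold, 140 passed under every alternative in which their gene was tested and 20 were lost under 1 or more. None reversed. Genes that the filter on dim genes removed were not tested under it and were not counted as lost. Restricting the fit to genes above the set median on at least 1 side left 11 called of 20 for the lines against MEF, 59 of 93 summed over the 8 substitutes and 11 of 17 for OKM+EV; fewer genes are tested there. With each set fitted alone, 10 of 37 genes were called for the iPSC lines against R1 (2 in the fit over all arrays). Of all 11991 genes, 3581 were called there (1624 in the fit over all arrays), so both counts rose. In these fits 3 genes were called for OKM+EV and 0 for SOX1, SOX3 and GMNN (9). Same-numbered deviations correlated at -0.50 to 0.51 between groups, so whether the replicate numbers are paired is not known. With the replicate block, the counts were 22 for the lines, 6 for the iPSC lines against R1, 12 for EV+SKM and 9 for OCT4. They were 111 for the substitutes, 23 for OKM+EV, 21 for SOX1, SOX3 and GMNN and 47 between iPSC lines and GATA factors. More of all genes passed with the block too, such as 7877 for the lines (6933 without it) and 6832 for OKM+EV (4879). The cause of these moves was not tested. Leaving out each array in turn gave 20 to 21 for the lines, 2 to 3 for the iPSC lines against R1, 10 to 11 for EV+SKM, 4 to 5 for OCT4, 58 to 95 for the substitutes, 10 to 23 for OKM+EV, 4 to 12 for SOX1, SOX3 and GMNN and 28 to 37 between iPSC lines and GATA factors. The lowest counts came without the first EV+SKM array (58), the second MEF2 EV array (10) and the first OKM+SOX2 array (4). Groups of 2 or 3 arrays and the dim end of the arrays limit small changes.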
